A study of Gallus gallus with 12 samples.

Results

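Skeletal muscle keeps its calcium in the sarcoplasmic reticulum, and 9 genes of this store were examined in chicken breast muscle: RYR3, CASQ2, ATP2A3, JPH1, JPH2, TRDN, SLN, PLN and PVALB. They were chosen by name, as every transcript cluster whose platform gene symbol was exactly one of these. Of the 9, 6 were found among the 20804 transcript clusters of the array, each with 1 transcript cluster. ATP2A3, JPH1 and PLN matched no symbol in the platform annotation used here and were not analysed here. Of the 6, RYR3, CASQ2, JPH2, TRDN and SLN were bright enough to be tested, and PVALB was not.

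In muscle, depolarisation of the transverse tubule makes ryanodine receptors open and release calcium from the terminal cisternae, where calsequestrin holds it, and SERCA pumps then return it to the store. Junctophilins hold the tubule and reticulum membranes together at the triad, and triadin anchors calsequestrin next to the release channel. Sarcolipin and phospholamban are small membrane proteins that inhibit SERCA, and parvalbumin is a soluble calcium buffer of fast fibres. Bird skeletal muscle is known for carrying a pair of ryanodine receptors, alpha and beta, of which RYR3 encodes beta.

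Pectoralis major, the breast muscle, was taken at day 36 from chickens of the broiler strain Ross PM3. The birds had been fed normally, with less phosphorus and calcium (restricted), or with that restricted feed plus added phytase, an enzyme that frees phosphate from phytate in plant feed. RNA of 4 birds was pooled for each of the 12 arrays, 4 to a diet, and the labels give neither the birds' sex nor how birds were assigned to pools. P-values therefore measure only the spread between these pools, and the number of arrays limits the precision. Levels are deposited log2 values, so a difference of 1 is a doubling, and levels are compared here between pools of one gene and not between genes.

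Fibre markers were looked up beside the tissue label, each against the brightness limit of 2.67 for a tested mean. All 4 measured fast-fibre markers (TNNC2, TNNI2, TNNT3 and TPM1) passed it, as did 6 of 7 slow-fibre markers, with MYL3 below it, and both measured cardiac markers (MYL4 and NKX2-5). TNNC1, the slow and cardiac troponin C, lay between 12.20 and 12.43, and ACTN2, listed with the slow-fibre markers, between 10.59 and 11.91. Of the other slow-fibre markers that passed, MYL2 lay between 2.52 and 2.89 and MYH7 between 3.64 and 4.22. MB lay between 4.38 and 5.51 and TNNI1 between 4.73 and 7.03. The cardiac MYL4 lay between 2.64 and 3.40 and NKX2-5 between 2.76 and 3.31. MYL2 and MYL4 thus reached below the limit in single pools. RYR2, the cardiac ryanodine receptor, was below the limit, between 1.64 and 1.94. Since levels of different genes are not compared, these markers do not settle the fibre type. HINTW, a transcript of the female W chromosome, was at 8.06 and 8.08 in restricted replicates 1 and 2 and at 7.66 and 7.57 in phytase replicates 1 and 4, against 2.27 to 2.76 in the other 8 pools. None of the normal pools had this signal, so it was partly confounded with diet in both contrasts against normal muscle. Restricted replicate 1 was the array least like the others, with a median correlation of 0.950 with them over the tested transcript clusters, against 0.963 to 0.972 for the rest.

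None of the 5 tested genes passed an adjusted p of 0.05 between diets in limma (Benjamini-Hochberg), and none of the 12482 transcript clusters tested did, so 0% were called in each contrast. At an unadjusted p under 0.05 the restricted and normal diets gave 0 calls among the 5 genes (5.3% of all tested transcript clusters), phytase against restricted gave 1 (8.83%), phytase against normal gave 0 (4.32%) and an F test over the 3 diets gave 0 (5.97%). The 4 pools of 1 diet lay clear of the 4 pools of another for 0 of the 5 in each contrast, where 2.32%, 3.67% and 3.05% of all tested transcript clusters did so, in the same order of contrasts. The median difference of the 5 was -0.06, 0.04 and 0.03, beside -0.01, -0.01 and 0.00 over all tested transcript clusters. The 3 contrasts share pools, so their values are not independent of each other. In a bulk pool, fewer cells of a type and less RNA per cell cannot be told apart.

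**Figure D1:**
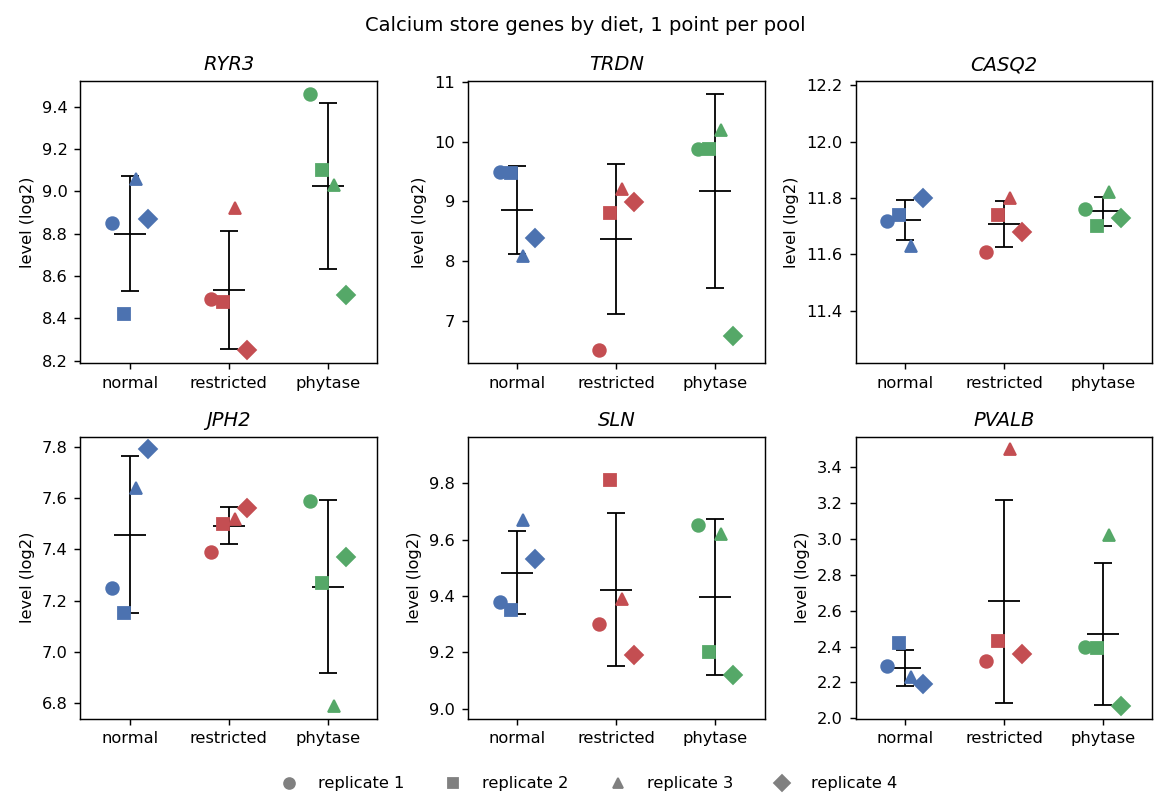
Levels of the 6 measured calcium store genes in each pool (log2, vertical axis, each panel with its own range) by diet (horizontal axis). Points are pools, with 1 symbol per replicate number, and bars give the mean and SD of 4 pools. TRDN spans 3.68 and CASQ2 only 0.21 over the 12 pools, and the pools of the 3 diets overlap in every panel.

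RYR3, the beta ryanodine receptor that releases calcium (transcript cluster 15522133), was at 8.85, 8.42, 9.06 and 8.87 in the normal pools, replicates 1 to 4. It was at 8.49, 8.48, 8.92 and 8.25 in the restricted pools and at 9.46, 9.10, 9.03 and 8.51 in the phytase pools. The 2 highest pools were phytase pools, and the lowest was a restricted pool, but all diets overlapped. Phytase replicate 4 lay below restricted replicate 3, and the normal pools overlapped both other diets even apart from these pools. The means were 8.80 ± 0.27, 8.54 ± 0.28 and 9.03 ± 0.39 (SD, n = 4) in normal, restricted and phytase muscle.

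RYR3 was the 1 gene of the group with an unadjusted p under 0.05 in any contrast. It was higher in mean in phytase than in restricted muscle by 0.49 ± 0.20 (SE), 1.40-fold, with a 95% confidence interval of 0.07 to 0.91 (limma unadjusted p = 0.0260, adjusted p = 0.523). It ranked 615 of 12482 by p in that contrast, so it does not stand apart from the 1102 transcript clusters with an unadjusted p under 0.05. The difference lay between 0.35 and 0.66 in the 26 alternatives. These reuse the same pools, and the filter and the prior cannot change a difference of means. CASQ2 and TRDN were also positive in all 26 in this contrast, so a constant sign does not set RYR3 apart. Without phytase replicate 1 it was 0.35 (limma unadjusted p = 0.0969), and without phytase replicate 4 it was 0.66 (limma unadjusted p = 0.00279, lowest adjusted p over all alternatives 0.202). The unadjusted p was under 0.05 in 20 of the 26, and was also above it without restricted replicate 2 or 4, phytase replicate 2, the 4 arrays with HINTW signal, or restricted replicates 1 and 2 together, where the difference lay between 0.40 and 0.48. RYR3 differed by -0.27 (95% interval -0.69 to 0.16) between restricted and normal muscle, and by 0.23 (-0.20 to 0.65) between phytase and normal muscle. With single arrays left out the first ran from -0.39 (without restricted replicate 3) to -0.17 (without restricted replicate 4). The second ran from 0.08 (without phytase replicate 1) to 0.40 (without phytase replicate 4, limma unadjusted p = 0.0460, adjusted p = 0.853), and was 0.10 without normal replicate 2.

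Markers of other cell types were compared between phytase and restricted pools, in a contrast where 48.3% of all tested transcript clusters had a higher and 51.2% a lower mean with phytase. The mean marker levels of the pools overlapped between these diets in every list but the erythroid one. Of the tested markers, 4 of 4 of endothelium had higher means with phytase, and the mean marker level, as a deviation from its 12-pool mean, ran from 0.02 to 0.31 in phytase and from -0.36 to 0.39 in restricted pools. Both tested erythroid markers, HBA1 and HBAD, had lower means with phytase, with mean deviations of -0.85 to 0.25 against 0.42 to 2.04. All 3 tested adipocyte markers had lower means with phytase, at -0.40 to 0.11 against 0.02 to 0.41. For a gene with more than 1 transcript cluster only the brightest was counted, which for PLIN1 was 15410651. PLIN1 transcript clusters 15410645 and 15410655 were also lower in mean with phytase. PLIN1 transcript cluster 15410653 was higher, with means of 5.38 in restricted and 5.915 in phytase pools. Of the slow-fibre markers 5 of 6 had higher means with phytase, at -0.11 to 0.25 against -0.31 to 0.09, and ACTN2, an actin crosslinker of the Z-disc, differed by 0.54 (limma unadjusted p = 0.0164, adjusted p = 0.519). Of the smooth muscle and pericyte markers 3 of 4 had lower means, with mean deviations of -0.06 to 0.24 against -0.12 to 0.07. MYH11 (transcript cluster 15551431) was higher, with means of 3.54 in restricted and 4.27 in phytase pools. It was the 1 marker of these 4 with a limma unadjusted p under 0.05. Of the fibroblast markers 3 of 4 had lower means, at -0.32 to 0.57 against -0.37 to 0.59. Fast-fibre markers were lower in 3 of 4, at -0.11 to 0.05 in both diets, and 2 of 4 leukocyte and platelet markers were lower, at -0.10 to 0.24 against -0.47 to 0.58. Of the 2 tested cardiac markers 1 was lower, at -0.13 to 0.01 against -0.13 to 0.06. ACTN2 was not the only marker with a limma unadjusted p under 0.05 in this contrast. There were 1 endothelial, 1 slow-fibre and 1 smooth muscle and pericyte marker among the higher ones (5.03% of all tested transcript clusters). Among the lower ones were both erythroid markers and 1 adipocyte marker (3.8% of all). After adjustment 0 of these markers passed in limma. The lowest deposited level of any transcript cluster was 0.83, so a marker's level above 0 does not show that its cell type was present. The part of these cell types in the RYR3 values was not tested.

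TRDN, triadin (transcript cluster 15489927), varied far more between pools than any other gene of the group. It was at 9.49, 9.47, 8.08 and 8.38 in the normal pools. In the restricted pools it was at 6.51, 8.80, 9.20 and 8.99. In the phytase pools it was at 9.87, 9.88, 10.19 and 6.74. The 3 highest pools were phytase replicates 1 to 3, while restricted replicate 1 and phytase replicate 4 lay lowest, below all the normal pools. The means were 8.86 ± 0.73, 8.38 ± 1.25 and 9.17 ± 1.63 (SD, n = 4) in normal, restricted and phytase muscle.

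The lowest and the highest TRDN pool differed 12.8-fold. Its SD within diets, pooled over the 3, was 1.26 against a median of 0.24 over all tested transcript clusters, and 32 of the 12482, or 0.256%, had a larger one. In the normal pools alone, which do not include the 2 low pools, its SD of 0.73 was exceeded by 1.49% of tested transcript clusters, and the corresponding shares were 0.489% in restricted and 0.176% in phytase pools. The 2 low pools both had HINTW signal, but so did restricted replicate 2 and phytase replicate 1, where TRDN was at 8.80 and 9.87. The arrays of the 2 low pools had SDs over all levels of 1.814 and 1.865, against 1.870 to 1.918 in the others. Their array weights in limma were 0.49 and 0.79, with restricted replicate 3 at 0.56 and the others at 0.91 to 1.54. The part of these array-wide traits in the TRDN spread was not tested.

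With this spread, diet differences of TRDN were poorly determined. Phytase and restricted muscle differed by 0.80, with a 95% confidence interval of -0.75 to 2.34 (limma unadjusted p = 0.288, adjusted p = 0.759). The difference was 0.17 without restricted replicate 1 and 1.61 without phytase replicate 4 (limma unadjusted p = 0.0112, adjusted p = 0.264, in the latter case). Restricted and normal muscle differed by -0.48 (-2.03 to 1.07). The sign turned, to 0.14, without restricted replicate 1, and to 0.35 with HINTW as a covariate. Phytase and normal muscle differed by 0.32 (-1.23 to 1.86), by 1.13 without phytase replicate 4 and by -0.03 without phytase replicate 3. The 4 arrays with HINTW signal include both low TRDN pools, restricted replicate 1 and phytase replicate 4. Leaving out these 4 arrays leaves 4 normal, 2 restricted and 2 phytase pools. TRDN then differed by 1.18 between phytase and normal muscle (limma unadjusted p = 0.00961, adjusted p = 0.703) and by 0.94 between phytase and restricted muscle (limma unadjusted p = 0.0521, adjusted p = 0.981).

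**Figure D2:**
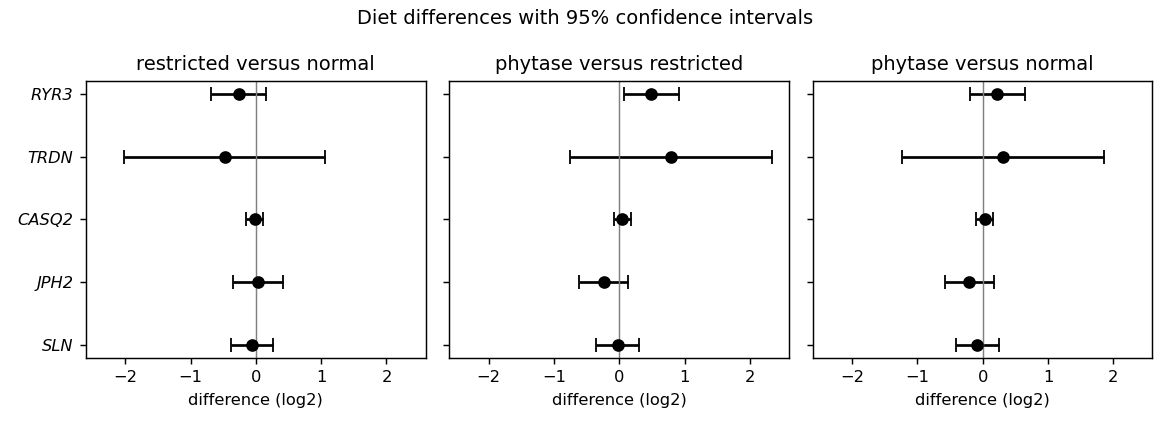
Difference between diets (log2, horizontal axis) of the 5 tested calcium store genes (vertical axis) in the 3 contrasts, with points for the estimate and bars for the 95% confidence interval from limma. Only the RYR3 interval between phytase and restricted muscle, 0.07 to 0.91, leaves out 0, and the TRDN intervals are the widest.

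**Figure D3:**
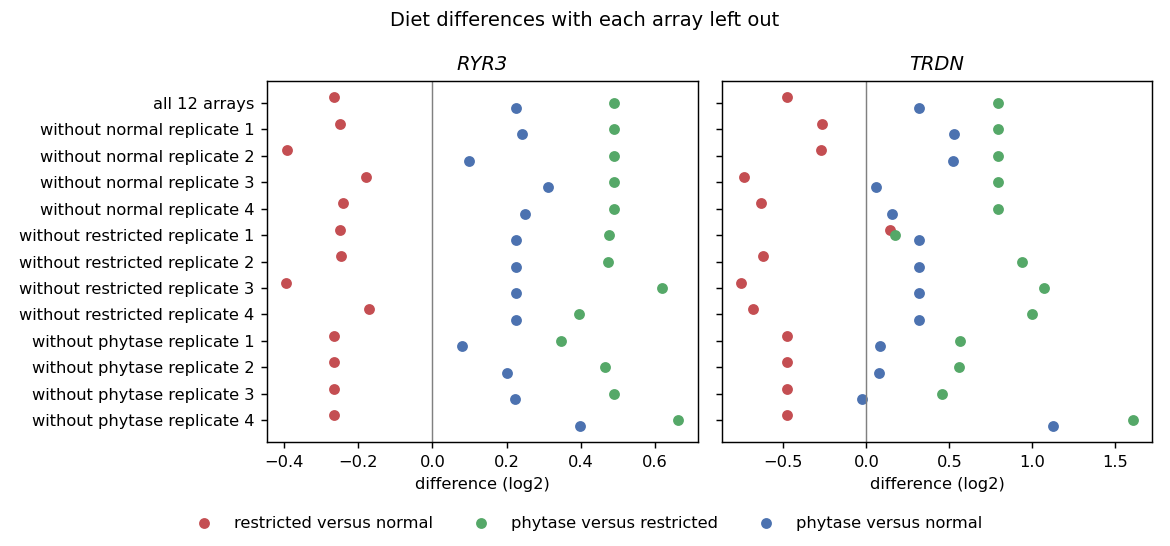
Differences of RYR3 and TRDN (log2, horizontal axis) with all 12 arrays and with each single array left out (vertical axis), in the 3 contrasts. RYR3 stays between 0.35 and 0.66 for phytase versus restricted, while TRDN runs from 0.17 to 1.61 in the same contrast.

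CASQ2, calsequestrin, which binds calcium inside the store (transcript cluster 15390724; RefSeq's gene table also lists CASQ1 as a synonym of this chicken gene), was nearly level over the experiment. It was at 11.72, 11.74, 11.63 and 11.80 in the normal pools. In the restricted pools it was at 11.61, 11.74, 11.80 and 11.68, and in the phytase pools at 11.76, 11.70, 11.82 and 11.73. All 12 pools lay within 0.21, a 1.16-fold range, and the diets overlapped throughout.

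The pooled SD of CASQ2 was 0.07, and 99.6% of tested transcript clusters had a larger one. Small SDs were not particular to CASQ2 among muscle genes. TNNI2 had SDs of 0.04, 0.10 and 0.07 in the normal, restricted and phytase pools, and TNNC1 had 0.10, 0.03 and 0.06. ACTN2 had larger ones, of 0.23, 0.40 and 0.36. The 95% intervals of the CASQ2 differences were -0.14 to 0.11 for restricted minus normal, -0.08 to 0.17 for phytase minus restricted and -0.10 to 0.16 for phytase minus normal. The limma adjusted p values were 0.988, 0.839 and 0.990. On the linear scale the widest bounds of these intervals were 0.905-fold and 1.13-fold.

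JPH2, a junctophilin of the triad (transcript cluster 15464885), was at 7.25, 7.15, 7.64 and 7.79 in the normal pools, at 7.39, 7.50, 7.52 and 7.56 in the restricted pools, and at 7.59, 7.27, 6.79 and 7.37 in the phytase pools. The restricted pools lay close together inside the range of the normal pools, with SDs of 0.07 and 0.31, and phytase replicate 3 was the lowest pool. For JPH2 the restricted minus normal difference was 0.04 (95% interval -0.34 to 0.41), phytase minus restricted -0.24 (-0.62 to 0.14) and phytase minus normal -0.20 (-0.58 to 0.18). The limma adjusted p values were 0.990, 0.705 and 0.984. Without phytase replicate 3 the differences from the phytase pools were -0.08 (restricted) and -0.05 (normal), and without phytase replicate 1 they were -0.35 and -0.31. Over the 8 pools with no HINTW signal they were -0.51 (limma unadjusted p = 0.0631) and -0.43 (limma unadjusted p = 0.0706). Phytase minus normal was -0.31 without normal replicate 2 and -0.09 without normal replicate 4.

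SLN, sarcolipin, the small inhibitor of SERCA (transcript cluster 15407890), was at 9.38, 9.35, 9.67 and 9.53 in the normal pools. It was at 9.30, 9.81, 9.39 and 9.19 in the restricted pools and at 9.65, 9.20, 9.62 and 9.12 in the phytase pools. Each diet had pools on both sides of 9.40, and the highest pool was restricted replicate 2. For SLN the restricted minus normal difference was -0.06 (95% interval -0.39 to 0.27), phytase minus restricted -0.03 (-0.35 to 0.30) and phytase minus normal -0.09 (-0.41 to 0.24). The diet means accounted for 2.88% of its variance over the 12 pools, against 34.5% for RYR3 and a median of 16.5% over all tested transcript clusters.

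PVALB, parvalbumin (transcript cluster 15387975), was dim. It was at 2.29, 2.42, 2.23 and 2.19 in the normal pools, at 2.32, 2.43, 3.50 and 2.36 in the restricted pools and at 2.40, 2.39, 3.02 and 2.07 in the phytase pools. Restricted replicate 3 and phytase replicate 3 were the only pools above 2.43. With no filter on dim transcript clusters it differed by 0.37 between restricted and normal muscle (limma unadjusted p = 0.158, adjusted p = 0.931), and levels in this range carry little information on abundance.

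The 5 tested genes did not form one pattern across the pools. Of their 10 pairs, 8 had a positive Pearson correlation over the 12 pools, 0 had an unadjusted p under 0.05 and 0 passed after adjustment over the 10 (permutation tests with 100000 resamples, two-sided). The highest was between CASQ2 and TRDN, with r = 0.54 (permutation p = 0.0698, adjusted p = 0.566) and rho = 0.46 (permutation p = 0.132, adjusted p = 0.458). Without the 2 pools farthest from the CASQ2 median, r was 0.14, so that relation rests on those pools. RYR3 and TRDN had r = 0.46 (permutation p = 0.130, adjusted p = 0.566) and rho = 0.43 (permutation p = 0.169, adjusted p = 0.458). Without the 2 pools farthest from the RYR3 median, r was 0.50, and over the 8 pools with no HINTW signal it was 0.07 (exact permutation p = 0.875). JPH2 and TRDN had r = -0.36 (permutation p = 0.257, adjusted p = 0.566) and rho = -0.46 (permutation p = 0.135, adjusted p = 0.458), and r was -0.11 without the 2 pools farthest from the JPH2 median. Over the 8 pools with no HINTW signal, which leave out the 2 lowest TRDN pools, r of JPH2 and TRDN was -0.89 (exact permutation adjusted p = 0.0248). That p was adjusted over the 10 pairs only, not over the alternatives. It was the 1 alternative of 16 in which this pair had an unadjusted permutation p under 0.05.

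The genes whose levels followed each member most closely were looked up among 8402 tested transcript clusters with 1 symbol of another gene. All such pairs share the same 12 arrays and their array-wide effects, and the genes were picked for their high r, so no test applies. TRDN was followed by NEXN, nexilin, an actin-binding protein of the Z-disc, with r = 0.98 and rho = 0.98, by KPNB1, importin beta, with r = 0.98 and rho = 0.94, and by PRPF4B, a kinase of the spliceosome, with r = 0.95 and rho = 0.92. Without the 2 pools farthest from the TRDN median the values of r were 0.95, 0.92 and 0.83. NEXN was at 4.65 in restricted replicate 1 and 5.56 in phytase replicate 4, and lay between 6.53 and 8.74 in the other pools. For TRDN, 14 of the transcript clusters had r above 0.9, and for RYR3 36 did.

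RYR3 was followed by PDCD5, programmed cell death protein, with r = 0.97 and rho = 0.92, by KLHL31, a kelch-family protein of muscle, with r = 0.97 and rho = 0.93, and by FAM210A, a mitochondrial protein, with r = 0.96 and rho = 0.90. Without the 2 pools farthest from the RYR3 median these were 0.94, 0.95 and 0.95, and with diet means removed they were 0.96, 0.97 and 0.94. KLHL31 was highest, at 10.18, in phytase replicate 1 and lowest, at 8.83, in restricted replicate 4, the same pools as RYR3. The closest genes to CASQ2 were POLE3, SMAD9 and TEAD4, with r between 0.87 and 0.88. For JPH2 they were PICK1, GMPR2 and LARP1, all with r = 0.91, and for SLN they were REXO2, TPMT and RPL35, with r between 0.86 and 0.90. For CASQ2 and SLN 0 transcript clusters had r above 0.9.

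**Figure D4:**
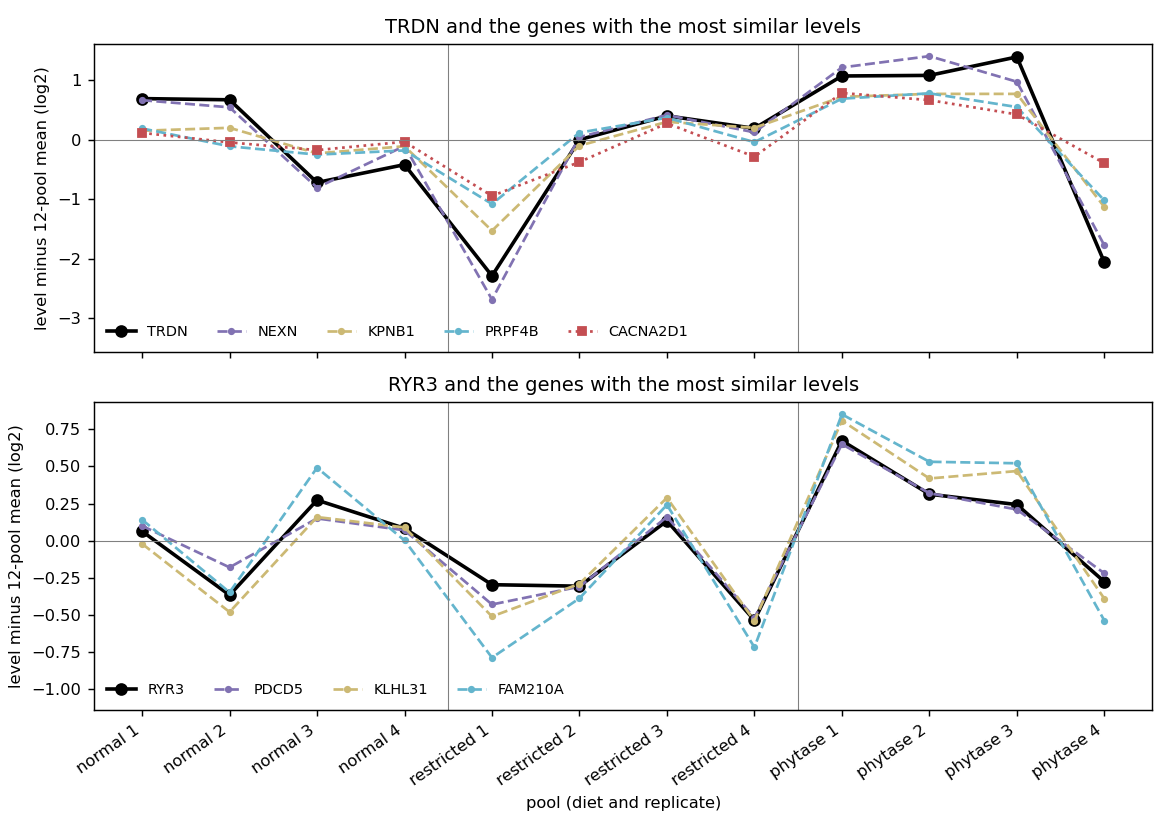
Levels as deviations from each gene's 12-pool mean (log2, vertical axis) over the pools (horizontal axis), with TRDN, its 3 closest genes and CACNA2D1 in the upper panel and RYR3 with its 3 closest genes in the lower one. TRDN and its closest genes are lowest together in restricted replicate 1 and phytase replicate 4, and RYR3 and its closest genes peak in phytase replicate 1.

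Other genes of calcium release, uptake and the triad were set beside the group, from a list of 48 of which 23 had a transcript cluster and 21 were tested. At an unadjusted p under 0.05, restricted against normal gave 0 of the 21 (5.3% of all tested transcript clusters), phytase against restricted 3 (8.83%) and phytase against normal 1 (4.32%). Of the 3, 2 were higher with phytase (5.03% of all) and 1 lower (3.8%). After Benjamini-Hochberg adjustment over all transcript clusters 0 passed in limma. Their median difference was 0.07, 0.03 and 0.11 in the same order. RYR1, ATP2A1, ASPH, STAC3 and TMEM38A matched no symbol and were not analysed here, and CASQ1 had no transcript cluster under that symbol apart from the gene described as CASQ2.

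CACNA2D1, the alpha-2-delta subunit of the voltage-gated calcium channel in the transverse tubule, was at 7.06, 6.90, 6.77 and 6.91 in the normal pools, at 6.00, 6.57, 7.22 and 6.66 in the restricted pools and at 7.73, 7.61, 7.37 and 6.55 in the phytase pools. The highest 3 were phytase pools, but phytase replicate 4 lay below 3 of the restricted pools. It differed by 0.70 (95% interval 0.14 to 1.26) between phytase and restricted muscle (limma unadjusted p = 0.0174, adjusted p = 0.519). ATP2B1, a calcium pump of the plasma membrane, differed by 0.52 in that contrast (limma unadjusted p = 0.00927, adjusted p = 0.519) and by 0.39 between phytase and normal muscle (limma unadjusted p = 0.0412, adjusted p = 0.984). Of the 21 tested listed genes 1, ATP2B1, had phytase pools, 4.91 to 5.37, clear of the normal pools, 4.51 to 4.79. Of all tested transcript clusters 3.05% did so in that contrast. FKBP1A, which encodes the FK506-binding protein of the ryanodine receptor, differed by -0.31 between phytase and restricted muscle (limma unadjusted p = 0.0188, adjusted p = 0.519).

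CACNA1S, the voltage sensor that gates calcium release, lay between 7.66 and 8.12 in all pools and differed by 0.15, -0.12 and 0.02 in the 3 contrasts, restricted versus normal first. ATP2A2, the SERCA pump of slow fibres and heart, lay between 5.64 and 6.67 and differed by 0.06, 0.17 and 0.24. The pools of the 3 diets overlapped for both genes.

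**Figure D5:**
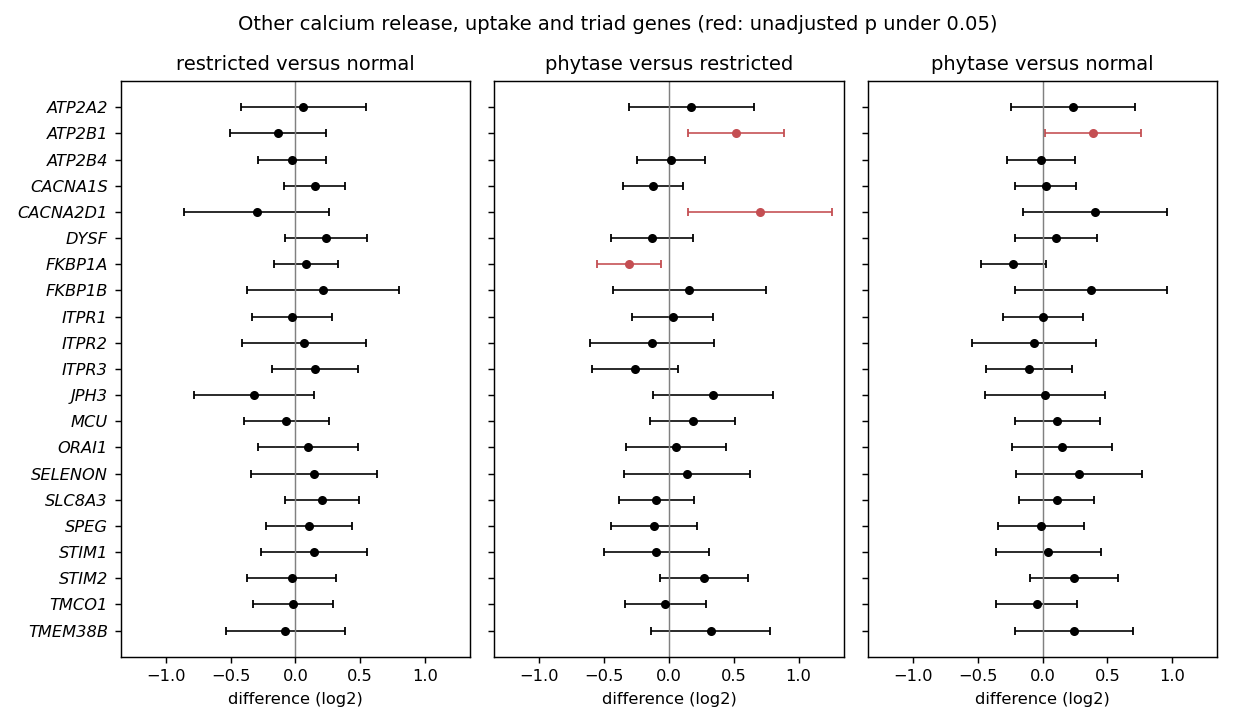
Differences between diets (log2, horizontal axis) of the 21 tested genes of calcium release, uptake and the triad outside the group (vertical axis), with 95% confidence intervals from limma, in the 3 contrasts. Red marks an unadjusted p under 0.05, which CACNA2D1, ATP2B1 and FKBP1A have between phytase and restricted muscle, and ATP2B1 also between phytase and normal muscle.

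Correlations of the 5 tested genes with these 21 were computed after seeing the data, 105 in all. By Pearson r 7 of them, or 6.67%, had an unadjusted permutation p under 0.05, a share near the threshold itself, and 1 passed after adjustment over the 105, and by Spearman rho 6 and 2 did. These pairs also share the 12 arrays and their array-wide effects, so a permutation p does not show a link particular to a pair. With TRDN, 14 of 8402 tested transcript clusters with 1 symbol of another gene had r above 0.9. The r of CACNA2D1 was below that value, and how many transcript clusters exceeded it was not counted. TRDN and CACNA2D1 had r = 0.84 (permutation p = 4.0e-04, adjusted p = 0.0420) and rho = 0.87 (permutation p = 5.4e-04, adjusted p = 0.0436). Without the 2 pools farthest from the TRDN median, which are the 2 low ones, r was 0.75 (permutation p = 0.0136), and with diet means removed it was 0.88. The adjusted p was over 0.05 when any 1 of 10 of the 12 arrays was left out, with r between 0.75 and 0.87, and under it without restricted replicate 2 or restricted replicate 4. TRDN and TMEM38B, a cation channel of the reticulum membrane, had rho = 0.85 (permutation p = 8.3e-04, adjusted p = 0.0436) and r = 0.74 (permutation p = 0.00644, adjusted p = 0.225). Without the 2 pools farthest from the TRDN median r was 0.57 (permutation p = 0.0813). Only rho had passed adjustment for this pair, and rho was not recomputed without those pools. RYR3 and CACNA2D1 had r = 0.79 (permutation p = 0.00249, adjusted p = 0.131) and rho = 0.74 (permutation p = 0.00787, adjusted p = 0.275), with r = 0.73 without the 2 pools farthest from the RYR3 median. SLN and JPH3, another junctophilin, had r = 0.73 (permutation p = 0.00967, adjusted p = 0.254) and rho = 0.70 (permutation p = 0.0145, adjusted p = 0.381), with r = 0.59 without the 2 pools farthest from the SLN median and 0.82 with diet means removed.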

How the data were processed

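Levels were measured on Affymetrix arrays from 100 ng of RNA per pool, per the labels' protocols. The submitters' processing notes name GCRMA and Expression Console without versions. The authors deposited one log2 level per transcript cluster and array. Base 2 was inferred from the range, 0.83 to 14.36, since no source gives it. GCRMA compresses dim signals, which shrinks their differences. Symbols came from the platform annotation, and all 6 measured genes kept theirs in RefSeq's table for GRCg7b. Exact copies of another transcript cluster's values occurred in 1644 cases, so counts include some copies.

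Transcript clusters whose mean reached the 40th percentile were fitted in limma 3.58.1 (R 4.3.3) with 1 mean per diet over 12 arrays and an intensity trend. Benjamini-Hochberg adjustment ran over all 12482. The fit was tested on simulated data. The members, lists and alternatives were chosen with earlier results of these data known. The text names all members, the 3 closest genes of each, and listed genes with an unadjusted p under 0.05 or a central role. Same-numbered pools were not treated as pairs. Their deviations from diet means correlated between -0.16 and 0.18, and 3 of 12 pairs passed 0.1. Differently numbered pools of different diets ran from -0.35 to 0.33, and 11 of 36 passed 0.1. Weak pairing is not excluded by these values. Alternatives covered the filter, normalization, prior, array weights, a replicate block, HINTW and left-out arrays.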

Additional observations from a re-analysis of the deposited data

Results flagged for a closer look

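In each group of 4 pools, the highest and lowest pool were compared with the nearest of the others, relative to the group's range. Of 33 groups from 11 genes, 4 had a pool past Dixon's 95% limit. The nominal rate of about 1 in 20 holds for independent, normally distributed values, whereas these genes share the same arrays. The share over all tested transcript clusters was not computed, so the count is not read as an excess. TRDN was at 6.51 in restricted replicate 1, with the next pool at 8.80, and at 6.74 in phytase replicate 4, with the next at 9.87. PVALB was at 3.50 in restricted replicate 3, with the next at 2.43. ATP2B1 was at 4.51 in normal replicate 4, where the other 3 normal pools were all at 4.79.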

How the results depend on the processing

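The number of pools limits precision (median SE 0.17), and dim levels hold little. Contrasts are ordered restricted minus normal, phytase minus restricted, phytase minus normal. In limma 0 transcript clusters passed the adjusted threshold under any alternative. With single arrays left out, unadjusted counts ran from 440 (without normal replicate 3) to 1073 (restricted 3), 696 (phytase 2) to 1727 (restricted 3) and 327 (phytase 2) to 687, with 495 (phytase 2) to 1233 (restricted 3) in the F test. Members among them numbered 0, 0 to 2, 0 to 1 and, in the F test, 0 to 2. Members not overlapping numbered 0, 0 to 2 and 0 to 1, beside 2.32% to 7.38%, 3.67% to 10.7% and 3.05% to 8.98% of all, where smaller groups overlap less by construction. With no filter the first contrast gave 1040 and the third 882 of 20804, against 662 and 539 of 12482 with the main filter. At the 60th percentile, where fewer transcript clusters were tested, the third gave 341. Such counts change with the number tested. With the main filter the third gave 895 with array weights, 1029 with the HINTW covariate and 839 without the HINTW arrays. Without those arrays the second gave 587 and 0 members, the third and the F test 1 member each, with 13.1%, 30.8% and 16.8% not overlapping (3 members in the second, 1 in the third). Without restricted replicates 1 and 2, the arrays least like the others, chosen after seeing the data, the second gave 620 and 0 members, with 13.1% and 11.7% not overlapping. Array weights and the replicate block gave 1 member in the F test, and the block changed no other call. In the first contrast signs turned for CASQ2 (0.0063 with the covariate, 0.0175 without the HINTW arrays, 0.0175 without the 2 arrays), JPH2 (-0.051, covariate), TRDN (0.35, 0.24 and 0.24) and SLN (0.013, array weights), and in the second for SLN (0.018 quantile, 0.12 without the HINTW arrays, 0.11 without the 2 arrays). With single arrays left out the first ran from -0.046 to 0.0175 for CASQ2, -0.0675 to 0.15 for JPH2, -0.76 to 0.14 for TRDN and -0.19 to 0.0175 for SLN, the second from -0.11 to 0.10 for SLN, and the third from -0.00083 to 0.056 for CASQ2, -0.025 to 1.13 for TRDN and -0.17 to 0.0075 for SLN. Correlations that turned were RYR3 with JPH2 (-0.025 without the 2 farthest pools, -0.10 without the HINTW arrays, -0.050 quantile, -0.13 to 0.28 with single arrays left out), CASQ2 with SLN (-0.19 quantile), JPH2 with SLN (-0.021 without the HINTW arrays), TRDN with SLN (-0.26 without the 2 farthest, -0.34 without the HINTW arrays) and CASQ2 with JPH2 (-0.45 to 0.18 with single arrays left out). Without the HINTW arrays 1 of 10 pairs passed, JPH2 with TRDN at r = -0.89 over 8 pools (exact permutation adjusted p = 0.0248). This was the 1 alternative of 16 in which any pair passed. The cause was not tested.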
